A study of Mus musculus with 20 samples.

Results

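The 9 genes described here encode Polycomb repressive complex 2 (PRC2), and they were chosen by name from the count tables: the core genes *Eed*, *Ezh2*, *Ezh1* and *Suz12*, and the accessory genes *Jarid2*, *Aebp2*, *Mtf2*, *Phf1* and *Phf19*. All 9 were found among the 43280 gene symbols counted, and all 9 passed the filter on low counts in both the embryonic and the adult libraries. The study asked how PRC2 in gut mesenchyme, the connective tissue around the epithelium, shapes stomach and intestine. RNA was sequenced from sorted GFP+ cells of embryos at E13.5 of embryonic development, separately for stomach and intestine, with 2 libraries for each organ and genotype, and from sorted GFP+ cells of the adult small intestine, with 2 libraries per genotype. Accessible chromatin of the same embryonic cells was read by ATAC-seq and is held as 4 peak lists, 1 for each organ and genotype, with replicates pooled by the authors.

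Embryonic controls carried Bapx1-cre and Rosa26mTmG, and Eed KO embryos carried these alleles together with Eedfl/fl, on a C57BL/6 background according to the labels. The study's reporting summary describes mixed strain backgrounds for its mice, the floxed *Eed* line among them. Bapx1 (*Nkx3-2*) drives Cre in the gut mesenchyme, and the reporter turns on GFP in every cell with a history of Cre. Sorted cells of both genotypes thus share Cre and the reporter, and among the named alleles differ by floxed *Eed*. Adult controls, labelled WT, carried the inducible Pdgfrβ Cre-ERT2 and Rosa26mTmG, and the adult Eed KO, labelled EED-KO, carried Eed fl/fl in addition. The study's methods give an age of about 10 weeks and tamoxifen treatment before dissection. *Pdgfrb* is expressed by pericytes and fibroblasts, and Cre activity in adults was restricted to cells that expressed it at the time of tamoxifen. The labels do not state whether libraries with the same number came from the same animals, so p-values measure the spread between libraries.

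PRC2 methylates lysine 27 of histone H3, and its trimethylated form, H3K27me3, marks silenced developmental genes. EZH2 and EZH1 are alternative catalytic subunits, and neither is active without SUZ12, the scaffold of the complex, and EED, which binds H3K27me3 and stimulates the enzyme. EZH2 is typical of dividing cells and EZH1 of resting ones. Accessory subunits define 2 forms of the complex: PRC2.1 holds 1 of the Polycomb-like proteins PHF1, MTF2 or PHF19, which bring it to CpG-rich DNA, and PRC2.2 holds JARID2 and AEBP2. During development PRC2 keeps genes of other positions and lineages silent, Hox genes and lineage regulators among them.

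In the mm10 build, *Eed* lies on the minus strand at chr7:89954656-89980983, and *Suz12* lies on the plus strand at chr11:79993106-80034123. *Ezh2* is at chr6:47530274-47595341 (minus), and *Ezh1* is at chr11:101191115-101226463 (minus). *Jarid2* is at chr13:44729474-44921643 (plus), and *Aebp2* is at chr6:140622449-140678472 (plus). The Polycomb-like genes are *Mtf2* at chr5:108065674-108109004 (plus), *Phf1* at chr17:26933127-26937890 (plus) and *Phf19* at chr2:34893757-34914026 (minus). All of these spans run from the first to the last base of the gene model.

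The sequences before 4 of the start sites are shown because these genes lay at the ends of the patterns described below: *Eed* carried the deletion, *Suz12* had the highest transcript level in every embryonic group, *Phf19* had the weakest promoter peak, and *Ezh1* was the member with a lower level in embryonic than in adult controls. The sequences are from RefSeq (GRCm38.p6), 5′ to 3′ on the strand of the gene, and end at the base before the first annotated exon. Capitals mark the letters TTCCCGC or TTGGCGC, to which E2F cell cycle factors bind, and the letters CCAAT, each on either strand.
Suz12, chr11:79992856-79993105, plus strand: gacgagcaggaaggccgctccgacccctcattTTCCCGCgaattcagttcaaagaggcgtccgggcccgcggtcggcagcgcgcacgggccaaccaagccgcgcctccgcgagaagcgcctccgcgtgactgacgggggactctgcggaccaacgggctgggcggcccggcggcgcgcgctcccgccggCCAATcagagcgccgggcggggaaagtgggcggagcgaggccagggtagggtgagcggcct
Phf19, chr2:34914027-34914226, minus strand: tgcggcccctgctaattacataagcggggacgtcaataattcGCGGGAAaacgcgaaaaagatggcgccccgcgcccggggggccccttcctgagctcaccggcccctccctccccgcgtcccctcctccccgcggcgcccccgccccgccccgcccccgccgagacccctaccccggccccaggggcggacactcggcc
Eed, chr7:89980984-89981226, minus strand: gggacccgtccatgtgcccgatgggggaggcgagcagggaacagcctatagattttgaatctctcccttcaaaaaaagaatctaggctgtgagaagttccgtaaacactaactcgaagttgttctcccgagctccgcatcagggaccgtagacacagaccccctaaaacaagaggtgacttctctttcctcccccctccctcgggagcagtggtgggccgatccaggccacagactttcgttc
Ezh1, chr11:101226464-101226713, minus strand: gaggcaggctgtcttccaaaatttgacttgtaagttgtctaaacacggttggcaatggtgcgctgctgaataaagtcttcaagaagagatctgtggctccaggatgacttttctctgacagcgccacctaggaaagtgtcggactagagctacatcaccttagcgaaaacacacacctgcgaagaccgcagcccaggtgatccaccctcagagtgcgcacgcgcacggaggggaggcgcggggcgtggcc
Of the 9 genes, *Suz12* and *Phf19* held the E2F letters within 250 bases before a RefSeq start, in *Phf19* on the opposite strand as GCGGGAA. The searched stretch before *Ezh2* lay inside its gene model, with 97 bases in exons, and that before the first *Aebp2* start had 214. All 250 bases searched before *Eed*, and 11 of those before *Phf19*, lay in exons annotated on the opposite strand. The same letters were present before 5.62% of the 32851 RefSeq promoters of that length, and CCAAT was present before 33.8% of them. The stretch before *Suz12* was 73.6% G or C and held 37 CG dinucleotides, and that before *Phf19* was 75.2% G or C over its 250 bases with 31 CG. *Eed* (54.4%, 12 CG) and *Ezh1* (55.2%, 14 CG) were closer to the medians of all promoters, 52.4% and 6 CG. A match describes letters only and was not tested as a binding site.

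Total counts on genes were 30236159 to 39606157 per embryonic library and 11404712 to 15903642 per adult library, and the biological coefficient of variation was 15.8% and 29.1%. Mesenchymal markers (8 genes) summed to 13329 to 24695 CPM (read counts scaled to library size by TMM) in every embryonic group, and 7 leukocyte genes to no more than 12.8 CPM. In adults the leukocyte genes, of which *Lyz2* had the highest level, summed to 601 to 773 CPM in controls and 13136 to 15059 CPM in Eed KO, and all 7 passed the test. The 8 mesenchymal genes summed to 11385 to 11901 CPM in adult controls and 3480 to 4983 CPM in Eed KO, with 4 of 7 tested genes lower. Other markers were also higher by value in adult Eed KO: enteric neural crest from 2.63 to 2.73 CPM in controls to 15.9 to 18.4 CPM, smooth muscle from 1768 to 2155 CPM to 3001 to 3516 CPM (3 of 5 passed) and endothelium from 96.0 to 96.1 CPM to 145 to 211 CPM (1 of 5 passed). Epithelial markers summed to no more than 120 CPM and erythroid markers to no more than 12.2 CPM in any library. In bulk samples, fewer cells of a type and less RNA per cell cannot be told apart.

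*Eed* mRNA fell about 4-fold in both embryonic organs of Eed KO embryos, and some transcript remained in every library. In the intestine, *Eed* stood at 38.1 and 40.1 CPM in controls and at 10.7 and 8.59 CPM in Eed KO. In the stomach it stood at 40.1 and 41.5 CPM in controls and at 11.5 and 7.40 CPM in Eed KO. All 4 Eed KO libraries lay far below all 4 controls, with no overlap. The log2 fold change was -2.02 ± 0.21 (SE) in the intestine and -2.11 ± 0.21 in the stomach (edgeR adjusted p = 0.00464 and 0.00175), a 4.05-fold and a 4.32-fold decrease. The 2 decreases differed by 0.10 ± 0.29 on the log2 scale (adjusted p = 1). *Eed* is counted over the whole gene, and reads from exons outside the deleted segment enter these counts. Scaled to the spike-in RNA added to each library, the median gene was 2.12 higher in Eed KO on the log2 scale, and *Eed* itself was at -0.04 and not called, which was -2.16 relative to that median.

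None of the other 8 subunit genes passed the test in either organ or in the mean of both (adjusted p under 0.05). *Eed* was the only member called in each of these comparisons, beside 3.06% of the 16218 genes tested in the intestine, 7.91% in the stomach and 12.3% in the mean effect, where 2.98% of genes were lower. At an unadjusted p under 0.05, *Aebp2* and *Phf19* joined it in the intestine (beside 14% of all genes), *Ezh2* in the stomach (22.6%), and *Ezh2*, *Jarid2*, *Aebp2* and *Phf19* in the mean effect (26.4%). With DESeq2 *Eed* was again the only member called in each organ. The calls of the other members depended on whether library number entered the fit. With it as a replicate block, which the labels do not state as a pairing, *Phf19* also passed in the intestine (5.69% of all genes), *Ezh2*, *Jarid2* and *Mtf2* in the stomach (15.3%), and *Ezh2*, *Jarid2*, *Aebp2*, *Mtf2* and *Phf19* in the mean effect (20.3%). The median log2 fold change of the 9 members was -0.13 in the intestine and -0.14 in the stomach. Over all genes tested the median was 0.01 and 0.00.

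**Figure D1:**
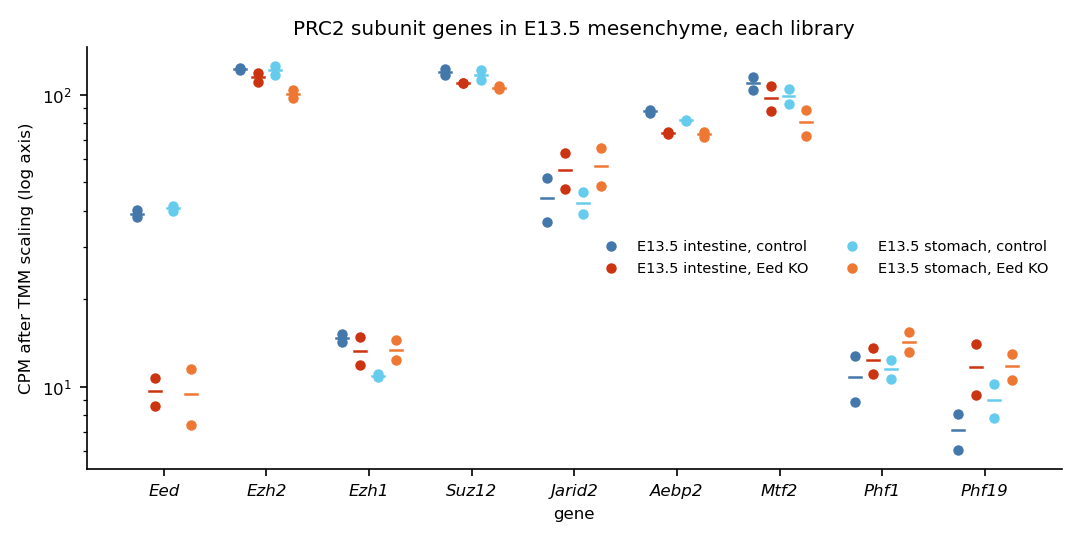
CPM (log axis) of the 9 genes, 1 point for each of the 8 embryonic libraries, coloured by organ and genotype, with a line at the mean of 2 libraries. *Eed* alone shows a wide gap, with 38.1 to 41.5 CPM in controls and 7.40 to 11.5 CPM in Eed KO.

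The remaining core genes were near their control level. *Ezh2*, the catalytic subunit of dividing cells, stood at 123 and 121 CPM in control intestine and at 111 and 118 CPM in Eed KO. In the stomach *Ezh2* stood at 117 and 125 CPM in controls and at 97.1 and 104 CPM in Eed KO. Eed KO libraries lay below controls within each organ, but the intestine Eed KO and the stomach controls overlapped. The mean effect was -0.18 ± 0.06 (adjusted p = 0.113). *Suz12*, the scaffold, had 117 and 122 CPM in control intestine against 109 and 109 CPM in Eed KO, and 112 and 121 CPM in control stomach against 107 and 104 CPM in Eed KO. Its Eed KO libraries were all below its controls, by -0.14 ± 0.06 (adjusted p = 0.195).

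*Ezh1*, the enzyme of resting cells, had values of opposite sign in the 2 organs. It stood at 14.2 and 15.1 CPM in control intestine and 11.8 and 14.7 CPM in Eed KO, where the groups overlapped. In the stomach it stood at 10.8 and 11.0 CPM in controls and at 12.4 and 14.4 CPM in Eed KO, with no overlap. The effects of Eed KO were -0.14 ± 0.15 and 0.30 ± 0.15 (adjusted p = 0.833 and 0.298), and their difference, -0.44 ± 0.21, did not pass (adjusted p = 0.937).

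Of the PRC2.2 genes, *Aebp2*, which encodes a DNA-binding zinc finger protein, was lower and *Jarid2*, which encodes a recruiting subunit, was higher in Eed KO by value, without passing the test. *Aebp2* stood at 86.6 and 88.9 CPM in control intestine and 73.2 and 74.2 CPM in Eed KO, and at 81.8 and 81.4 CPM in control stomach and 71.7 and 74.2 CPM in Eed KO. The Eed KO libraries of both organs lay below all controls, and the mean effect of -0.21 ± 0.06 was the closest to the threshold among the 8 genes (adjusted p = 0.0616). *Jarid2* stood at 36.7 and 51.6 CPM in control intestine and 47.5 and 63.0 CPM in Eed KO. In the stomach *Jarid2* stood at 38.9 and 46.2 CPM in controls and 48.6 and 65.4 CPM in Eed KO. Its replicates spread widely, library 2 was above library 1 in 4 of 4 groups, and the mean effect was 0.37 ± 0.16 (adjusted p = 0.186). With DESeq2 and a factor estimated from the spike-ins (RUVg), *Jarid2* changed direction, to -0.15.

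Of the Polycomb-like genes, *Mtf2* was the most abundant and *Phf19* the least. *Mtf2* stood at 115 and 104 CPM in control intestine against 107 and 87.8 CPM in Eed KO, and at 104 and 92.6 CPM in control stomach against 88.8 and 72.0 CPM in Eed KO. The groups overlapped in the intestine and not in the stomach, and the mean effect was -0.23 ± 0.10 (adjusted p = 0.204). *Phf19* stood at 6.07 and 8.08 CPM in control intestine against 9.34 and 14.0 CPM in Eed KO, and at 7.80 and 10.2 CPM in control stomach against 10.5 and 12.9 CPM in Eed KO. *Phf19* was higher in Eed KO within each organ, while stomach controls and intestine Eed KO overlapped. Its mean effect of 0.55 ± 0.18 missed the threshold with edgeR (adjusted p = 0.0935) and passed with DESeq2 (adjusted p = 0.0472), and with the RUVg factor *Phf19* turned to -0.056 and *Mtf2* to 0.12. *Phf1* stood at 8.85 to 12.7 CPM in the 4 controls and 11.1 to 15.3 CPM in the 4 Eed KO libraries, an effect of 0.25 ± 0.14 (adjusted p = 0.321).

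Groups of 2 libraries often separate in these data, which sets the scale for the values above. In the intestine 5 of 9 members had non-overlapping groups (1 above, 4 below), beside 38.3% of all genes tested. In the stomach 9 of 9 did (4 above, 5 below), beside 55% of all genes. With both organs joined, 4 Eed KO against 4 control libraries, *Eed*, *Suz12* and *Aebp2* were below and none above, beside 13.1% of all genes.

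**Figure D2:**
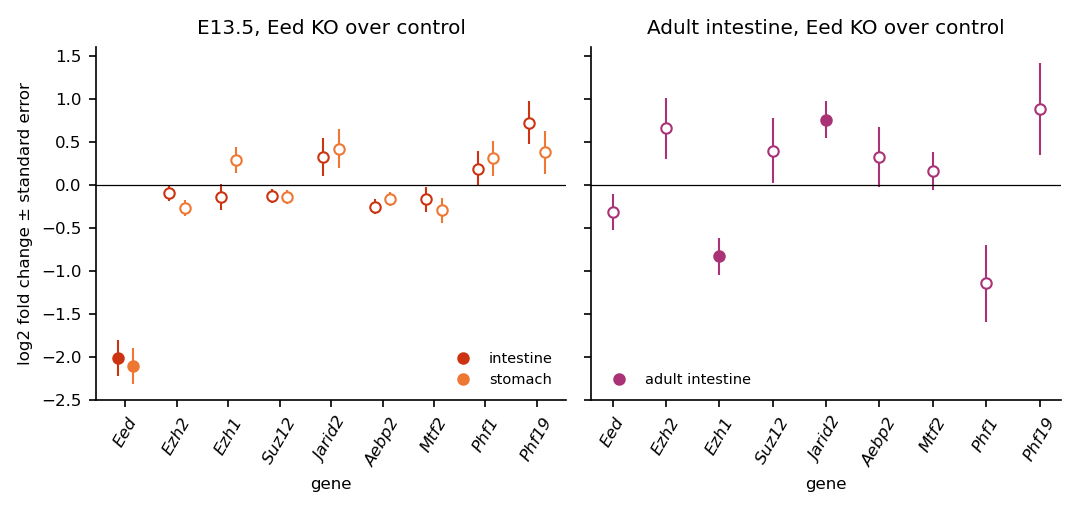
The log2 fold change of Eed KO over control for each gene in embryonic intestine and stomach (left) and adult intestine (right), with bars of 1 standard error from edgeR; filled points passed at an adjusted p under 0.05. *Eed* lies at -2.02 and -2.11 in the embryonic organs and at -0.32 in the adult, where *Ezh1* and *Jarid2* are the filled points.

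Without a replicate block, no member was called between the organs with edgeR or DESeq2. In controls, 6.83% of genes passed between intestine and stomach and none of the 9 members did, and in Eed KO 6.33% of genes passed and again no member. The largest difference of a member in controls was that of *Ezh1*, 0.43 ± 0.15 higher in the intestine on the log2 scale (adjusted p = 0.176). The effect of Eed KO itself differed between organs for 0.105% of genes at an adjusted p under 0.05 with edgeR, and for none of the members. At an unadjusted p under 0.05, 2851 genes passed between control organs, 3234 between Eed KO organs and 954 in the difference of effects, and *Ezh1* between control organs was the only member among them.

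Levels between genes were compared as TPM, a share of the library after counts are divided by exon length. In control intestine *Suz12* was highest (72.5 TPM, mean of 2), followed by *Mtf2* (62.3), *Ezh2* (59.1) and *Eed* (52.8). *Aebp2* (32.4 TPM) was lower, *Jarid2* (13.6) and *Phf1* (13.3) overlapped each other, and *Ezh1* (5.91) and *Phf19* (4.22) were lowest. In control stomach *Suz12* was again highest at 71.6 TPM, followed by *Ezh2* (59.3), *Mtf2* (56.9) and *Eed* (55.8). *Ezh2* was above *Eed* in both stomach control libraries, and *Mtf2* overlapped each of them. In Eed KO, *Eed* dropped to seventh place of 9, with 13.2 TPM in the intestine and 13.6 TPM in the stomach, while *Suz12* stayed first.

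Relative to the other core genes of a library, *Eed* was also lower in Eed KO. The TPM of *Eed* divided by the mean of *Suz12* and *Ezh2* was 0.789, 0.817, 0.868 and 0.838 in the 4 controls. It was 0.243, 0.188, 0.277 and 0.176 in the 4 Eed KO libraries. The groups were far apart, with a difference of -0.607. An exact permutation test of 4 against 4 libraries gave a two-sided p of 0.0286, the smallest it allows. After adjustment over 12 tests of 6 ratios it was 0.171, and no ratio passed. The test joined the organs and took all libraries as independent, although stomach and intestine libraries may share embryos.

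The balance of *Jarid2* and *Aebp2* also did not overlap between the libraries of the 2 genotypes, without passing after adjustment. Among single genes 13.1% separated in this way, *Aebp2* itself included, and the share among other ratios was not computed. The *Jarid2* share of their summed TPM was 26.1% to 32.6% in the 4 controls and 35.1% to 42.4% in the 4 Eed KO libraries. The difference of 8.95 percentage points had the same exact permutation p (0.0286, adjusted p = 0.171), with libraries again taken as independent. Within the Polycomb-like genes, *Mtf2* held 71.3% to 81.9% of the summed TPM in controls and 63.2% to 73.3% in Eed KO, a difference of -7.94 points (exact permutation p = 0.0571). *Phf19* held 4.51% to 8.21% in controls and 6.68% to 11.8% in Eed KO (exact permutation p = 0.0571), and both sets of groups overlapped. The *Ezh1* share of the 2 catalytic genes was 6.83% to 9.43% in controls and 8.17% to 10.3% in Eed KO, and *Ezh2* supplied the rest (exact permutation p = 0.171).

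**Figure D3:**
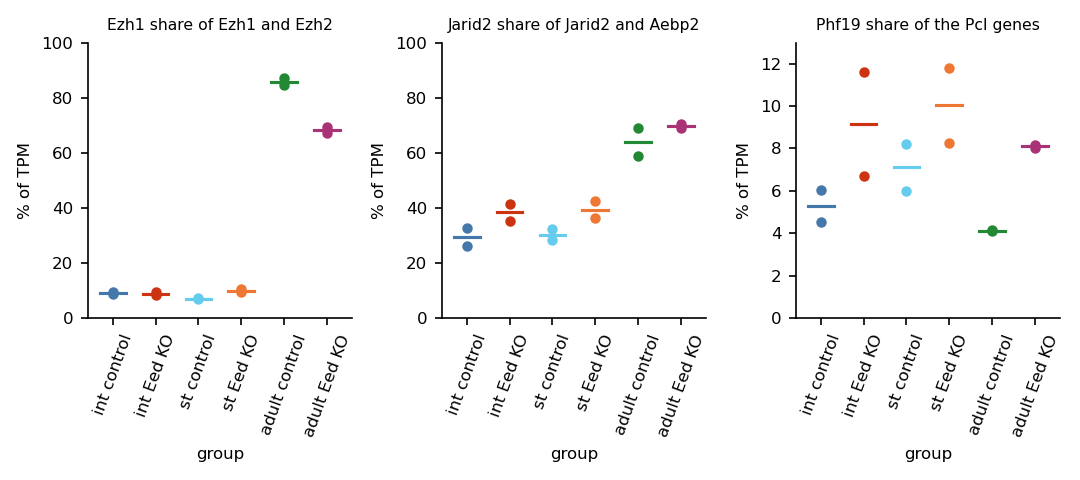
Share of summed TPM in percent, 1 point per library with a line at the mean of 2, for *Ezh1* among the catalytic genes, *Jarid2* among the PRC2.2 genes and *Phf19* among the Polycomb-like (Pcl) genes, by group (int, intestine; st, stomach; the third panel ends at 13%). The *Ezh1* share is at most 10.3% in embryonic libraries and averages 85.8% in adult controls and 68.2% in adult Eed KO.

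Partner and pathway genes were read from lists beside the 9 members. Of 8 PRC2 partners, 7 were tested in the embryonic libraries. *Epop* (listed as E130012A19Rik), which encodes a PRC2.1 subunit that links the complex to elongins, rose in both organs. It stood at 8.09 and 8.55 CPM in control intestine against 26.6 and 30.0 CPM in Eed KO, and at 7.86 and 7.32 CPM in control stomach against 27.3 and 28.7 CPM in Eed KO. The genotypes did not overlap, and the increase was 3.41-fold and 3.69-fold (log2 1.77 ± 0.12 and 1.88 ± 0.12, edgeR adjusted p = 0.000943 and 0.000356). *Lcorl*, a paralogue of the PRC2.1 partner *Lcor*, rose in the stomach from 27.5 and 30.4 CPM to 46.8 and 40.9 CPM (log2 0.60 ± 0.11, adjusted p = 0.0185) and had 25.2 and 25.5 CPM against 23.7 and 24.6 CPM in the intestine. The stomach call was lost with the RUVg spike-in factor (0.66, adjusted p = 0.0754) and without stomach control library 1 (0.52), control library 2 (0.67) or Eed KO library 1 (0.50). *Rbbp4* and *Rbbp7*, the histone chaperones present in every PRC2, did not pass.

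None of the 4 genes for H3K27 demethylases and acetyltransferases passed in the embryonic libraries with edgeR, and *Kdm6a* had an unadjusted p of 0.0182 in the mean effect (log2 -0.26). *Cbx8*, which encodes a chromobox protein that reads H3K27me3, rose in the mean effect (log2 0.64, adjusted p = 0.0144). Of 17 DNA replication and mitosis genes, 13 fell in the mean effect, 8 in the stomach and none in the intestine, where 16 of 17 values were negative. The median log2 change of the list was -0.33 in the mean effect, beside 0.00 for all genes, and *Tyms*, *Rrm2*, *Birc5* and *Mcm6* had the largest decreases, from -0.39 to -0.37. *Mki67*, the single gene of the list with a positive value, had 18.1 to 63.3 CPM in the controls and 28.1 to 194.6 CPM in Eed KO (1.38 ± 0.61, adjusted p = 0.204). *Ezh2* (-0.18) had a smaller decrease. Of 5 endothelial markers, 4 also rose in the mean effect, from a sum of 14.4 to 19.1 CPM in controls to 23.7 to 44.2 CPM in Eed KO. The part of either list in the values of the members was not tested.

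Other genes followed *Eed* or *Ezh2* across libraries. Correlations used log2 CPM with a constant added to CPM before the log. Among 16217 genes, the 3 that followed *Ezh2* most closely over the 8 embryonic libraries were *Mre11a* (Pearson's r = 0.989), *Tk1* (0.978) and *Mcm7* (0.975). Those most like *Eed* were *Acaa1a* (0.995), *Sycp1* (0.988) and *Gm14681* (0.987). *Acaa1a* had 61.5 to 64.3 CPM in controls and 43.4 to 46.8 CPM in Eed KO. *Sycp1*, a gene of the meiotic synaptonemal complex, had 35 to 49 counts in each embryonic control and 0 to 2 in each embryonic Eed KO library. In the adult, where *Eed* was not called, *Sycp1* had 58 and 64 counts in controls and 1 and 0 in Eed KO. *Acaa1a* and *Gm14681* overlapped between the adult genotypes. The 8 points share genotype, organ and depth, and these values are descriptions.

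**Figure D4:**
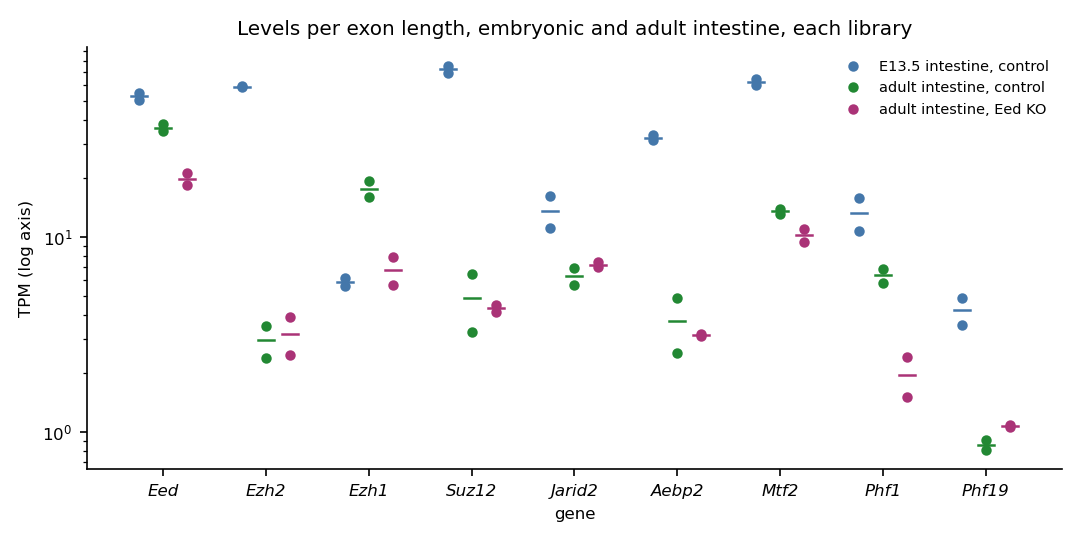
TPM (log axis) of the 9 genes in embryonic control, adult control and adult Eed KO intestine, 1 point per library with a line at the mean of 2. *Ezh2* and *Suz12* are 20.0 and 15.0 times higher in the embryonic than in the adult controls, and *Ezh1* is higher in the adult.

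Embryonic and adult levels were set side by side without a test, since kit, strand, counting and the Cre driver that marks the cells differed. Of the core genes, *Ezh2* and *Suz12* were far more abundant in embryonic than in adult control intestine, and *Eed* and *Ezh1* were not. *Ezh2* had 58.7 and 59.5 TPM in the embryo and 3.50 and 2.40 TPM in the adult, a ratio of 20.0. *Suz12* had 69.8 and 75.3 TPM in the embryo and 6.43 and 3.26 TPM in the adult, a ratio of 15.0. *Aebp2* was 8.71 times, *Phf19* 4.91 times, *Mtf2* 4.59 times, *Jarid2* 2.16 times and *Phf1* 2.09 times higher in the embryo. *Eed* differed the least, with 50.6 and 55.1 TPM in the embryo and 34.8 and 38.1 TPM in the adult, a ratio of 1.45. *Ezh1* went the other way, from 5.63 and 6.19 TPM in the embryo to 19.3 and 16.0 TPM in the adult, which was 2.99 times higher.

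The catalytic genes changed places between the stages. *Ezh1* supplied 8.76% and 9.43% of the catalytic transcripts in embryonic control intestine and 84.6% and 87.0% in adult controls. In the adult controls *Eed* led (36.5 TPM), followed by *Ezh1* (17.7) and *Mtf2* (13.6). *Phf1*, *Jarid2*, *Suz12*, *Aebp2* and *Ezh2* lay between 6.37 and 2.95 TPM, each overlapping its neighbour, and *Phf19* was lowest at 0.858 TPM. Proliferation genes differed in the same direction as *Ezh2*, with ratios from 3.42 (*Tyms*) to 146 (*Ccna2*). *Mcm2* had 231 and 215 TPM in the embryo and 10.4 and 9.78 TPM in the adult, a ratio of 22.1. *Rbbp7* differed 1.12-fold.

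In the adult intestine *Eed* did not pass the test. It stood at 29.7 and 33.4 CPM in controls and at 25.7 and 25.0 CPM in Eed KO. The libraries did not overlap, and the log2 change was -0.32 ± 0.21 (adjusted p = 0.317). Scaled to library totals instead of TMM, which moved the median of all genes to -0.49, *Eed* was -0.80 and passed (adjusted p = 0.0261). On the TPM scale *Eed* had 34.8 and 38.1 in controls and 21.2 and 18.6 in Eed KO, lower in both Eed KO libraries. It remained the most abundant of the 9 transcripts in the adult Eed KO (19.9 TPM). The difference between the embryonic and the adult decrease was not tested.

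Among the other members, *Ezh1* was lower and *Jarid2* higher in adult Eed KO. *Ezh1* stood at 55.2 and 47.2 CPM in controls and 32.0 and 25.6 CPM in Eed KO, and fell by 0.83 ± 0.22 on the log2 scale (adjusted p = 0.0331). *Jarid2* stood at 25.9 and 21.9 CPM in controls and 37.1 and 43.9 CPM in Eed KO, a rise of 0.76 ± 0.22 (adjusted p = 0.0449). The groups did not overlap for either gene. These 2 of 9 members compare with 23.5% of the 15039 genes tested, with 14.1% of genes higher, and the median of the members was 0.33 beside 0.00 for all genes. Leaving out single libraries ended the call of *Jarid2* in each of 4 cases (0.63 to 0.88), and that of *Ezh1* in 3 (-0.93 to -0.68), the exception being Eed KO library 1 (-1.02). With library totals, *Jarid2* was at 0.27 and did not pass, *Ezh1* was at -1.32, and of all genes 1486 were higher and 3897 lower, in place of 2118 and 1412.

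*Phf1*, at 6.44 and 5.61 CPM in adult controls and 3.21 and 2.24 CPM in Eed KO, did not overlap and did not pass (-1.15 ± 0.45, adjusted p = 0.114). *Ezh2* had 8.34 and 5.89 CPM in controls and 13.1 and 9.35 CPM in Eed KO (0.66 ± 0.36, adjusted p = 0.231). *Phf19* had 1.76 and 1.61 CPM against 2.91 and 3.32 CPM (0.89 ± 0.53, adjusted p = 0.273). Both were higher in each Eed KO library by value. *Suz12*, *Aebp2* and *Mtf2* overlapped between genotypes and had changes of 0.16 to 0.40. Reads of *Mtf2* and the opposite-strand gene *Tmed5*, which share 395 bases of exon, cannot be told apart in these unstranded counts. Groups of 6 of 9 members did not overlap (3 above, 3 below), beside 65.3% of all genes.

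The *Ezh1* share of catalytic transcripts was 84.6% and 87.0% in adult controls and 67.0% and 69.5% in Eed KO. It was lower in both Eed KO libraries, although 2 against 2 libraries cannot reach an exact permutation p below 0.333. Of the partner list, 6 genes were tested and 3 rose: *Lcorl* (1.76), *Lcor* (1.31) and *Tceb1* (1.10). *Lcorl* rose from 8.05 and 8.34 CPM to 24.9 and 30.5 CPM. *Kdm6b*, an H3K27 demethylase, rose by 2.23 on the log2 scale, and of 17 replication genes *Mcm5* (1.61), *Pcna* (1.36) and *Mcm3* (1.19) rose. Beside these counts, 14.1% of all 15039 genes tested were higher in adult Eed KO, a share close to that of the replication genes. The leukocyte genes were higher (median log2 change 4.62), smooth muscle (0.69), endothelial (0.52) and enteric neural crest genes (2.00) were higher by value, and the mesenchymal genes were lower (median -1.31) in these Eed KO libraries, and their part in the values of the members and partners was not tested.

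All 9 members had an accessible promoter in every embryonic condition. A peak within 1000 bp of a start was present in all 4 lists for 9 of 9 members, beside 86.9% of the 16216 genes placed. Fold enrichment, the signal over the peak caller's background, reached its highest value at *Suz12* (7.63 to 10.4 over the 4 lists). *Suz12* led in both stomach lists, *Phf1* (7.58 to 8.95) in control intestine and *Mtf2* (7.66 to 8.33) in Eed KO intestine, and *Ezh1* had 6.42 to 8.50. *Eed* had 6.53 to 7.17, *Ezh2* 6.41 to 6.70, *Aebp2* 5.74 to 6.03 and *Jarid2* 4.21 to 4.94. *Phf19* had the weakest peak (3.06 to 3.81, -log10 q of 5.56 to 8.15), between the 3.65 and 8.61 percentiles of all genes with a promoter peak.

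Promoter accessibility in Eed KO was near that of controls. The *Eed* promoter kept its peak, with an Eed KO to control ratio of fold enrichment of 0.996 in the intestine and 1.09 in the stomach. Over all genes the median ratio was 0.952 and 0.990. *Ezh1* had the highest ratios of the 9, 1.17 and 1.22, just above the 95th percentile of all genes (1.15 and 1.19). *Phf19* (0.803) and *Jarid2* (0.894) had the lowest in the intestine. Within the gene bodies, *Jarid2* held 21 merged peaks over 192170 bases, 7 of them in all 4 lists, and 1 *Ezh1* peak at chr11:101221185-101221584 was in both Eed KO lists and in neither control list. Each condition has 1 pooled list, so these differences have no replicate check.

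**Figure D5:**
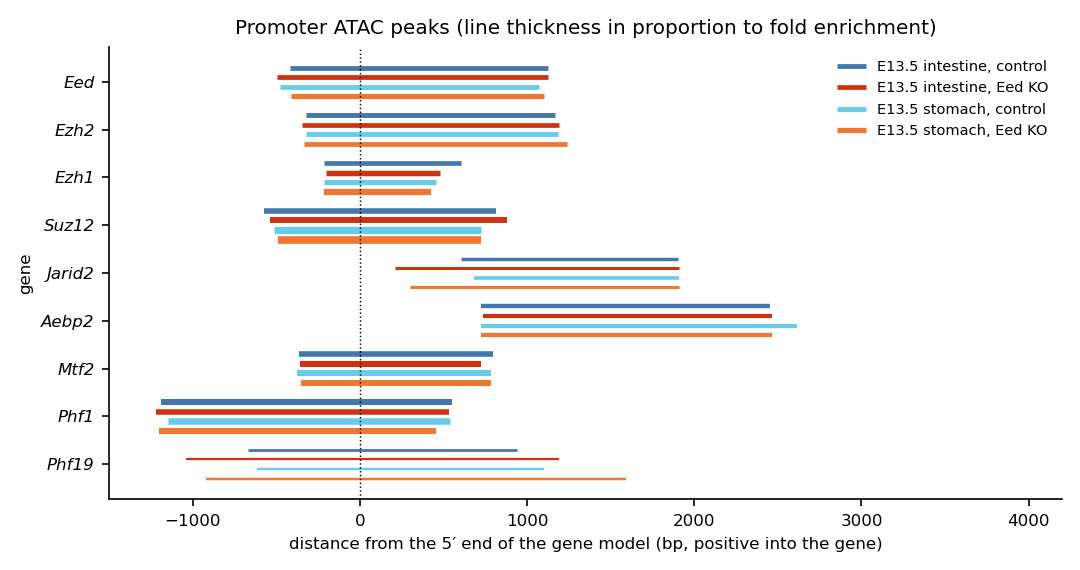
Extent of the promoter peak of each gene in the 4 pooled peak lists, as distance in bp from the start of the gene model (dotted line), with line thickness in proportion to fold enrichment. Peaks of *Jarid2* and *Aebp2* begin inside the gene model, and those of *Phf19* are the thinnest, at 3.81 or less.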

How the data were processed

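RNA-seq was performed on 8 embryonic and 4 adult libraries. According to the submitters' notes and the study's methods, reads were trimmed with Trimmomatic 0.32 and aligned to mm10 with STAR 2.5.1b, and the authors deposited raw read-pair counts per gene symbol (GENCODE vM4) and per spike-in transcript; adult counts ignored strand. ATAC-seq reads were aligned with BWA 0.7.8, replicates of a condition were pooled, and MACS2 2.1.2 gave the deposited broad peaks with their fold enrichment and -log10 q-value. The exon length deposited beside the adult counts was used for TPM.

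Embryonic and adult counts were fitted separately with the quasi-likelihood test of edgeR 4.0.16 (R 4.3.3) after filterByExpr (minimum count 10) and TMM scaling, with group means only and the 4 embryonic groups sharing 1 estimate of the spread. The p-values were adjusted over all genes tested (16218 embryonic, 15039 adult) by Benjamini-Hochberg, and a gene passed at an adjusted p under 0.05. The fit was tested on simulated counts. Ratios of TPM were compared by exact two-sided permutation tests over libraries, which were taken as independent. Promoter peaks lay within 1000 bp of a start and had no test. DESeq2 1.42.0, other scalings, filters, blocks and left-out libraries were tried as alternatives.

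All 9 members are named, with up to 4 genes that passed from each gene list, and the 3 genes most correlated with *Eed* and with *Ezh2*. *Sycp1* counts, the genes compared between stages, and *Rbbp4* and *Rbbp7* were chosen after their values were seen. The members and lists were chosen with earlier results of these data known. Groups came from the labels. Among expressed genes elsewhere in the genome, none shared 35 or more 50-base words with a member. The list of H3K27me3 readers is not reported in full here.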

Additional observations from a re-analysis of the deposited data

How the results depend on the processing

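*Eed* was the only member called in the embryonic intestine, stomach and mean effect under DESeq2 size factors, library totals and the RUVg spike-in factor. In the mean effect, DESeq2 and the unfiltered counts each called 2 members, with *Phf19* added. Of all genes, DESeq2 called 1659 higher and 547 lower of 19463, and the unfiltered counts 2004 and 606 of 25364. Leaving out single libraries gave *Phf19* a mean effect of 0.39 to 0.68. Scaled to spike-in totals, which moved the median log2 change of all genes to 1.85, 2.39, 2.12 and -0.42, 6, 8 and 8 members passed in the intestine, stomach and mean effect, without *Eed*, and 0 passed in the adult. Of all genes in the mean effect, 15915 were then higher and 26 lower, in place of 1510 and 484, and 556 and 1002 with the RUVg factor. That factor was higher in all 4 Eed KO libraries than in all 4 controls, and with it *Eed* was at -1.49 while *Ezh1* (-0.30), *Jarid2* (-0.15), *Mtf2* (0.12) and *Phf19* (-0.056) changed sign. The causes were not tested. It was not run for the adult.

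The labels do not say that library numbers mark shared animals. Same-numbered libraries deviated together between organs (correlation 0.370 in controls, 0.748 in Eed KO) and less between genotypes (0.138 to 0.282), and not in the adult (-0.082). With the library number as a replicate block, 2 members passed in the intestine (*Phf19* added), beside 5.69% of genes. In the stomach 4 passed (*Ezh2*, *Jarid2* and *Mtf2* added), beside 15.3%. In the mean effect 6 passed (*Ezh2*, *Jarid2*, *Aebp2*, *Mtf2* and *Phf19* added), beside 20.3%. In the adult 1 passed (*Ezh1*), beside 1936 genes higher and 1169 lower of 15039. With a replicate block fitted within each genotype, 1 member passed between control organs (*Ezh1*), beside 1100 genes higher and 1495 lower of 16218. Between Eed KO organs 1 member passed (*Mtf2*), beside 1593 genes higher and 1952 lower.

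In the adult, leaving out single libraries gave 0 to 1 members in place of 2. Library totals turned *Suz12* (-0.10), *Aebp2* (-0.17) and *Mtf2* (-0.33), and left-out libraries gave *Aebp2* -0.045 to 0.83 and *Mtf2* -0.039 to 0.31, and *Ezh1* in the embryonic mean effect -0.0091 to 0.15. The difference of the *Eed* effect between organs was -0.048 with RUVg and -0.18 to 0.44 without single libraries. Of 433 alternatives for single values, 382 kept direction and side of the threshold. For spike-in totals, that direction was judged after the median change of all genes was subtracted. All 9 members kept a promoter peak in every list at a -log10 q of at least 5 and within 5000 bp, and 7 of 9 within 250 bp. Distances were taken from the outermost base of the gene model. The exceptions at 250 bp were *Jarid2* and *Aebp2*, and the *Jarid2* peak covered its RefSeq starts in every list. The lowest members, such as *Phf19* in the adult at 1.61 to 3.32 CPM, are limited by depth.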
